A study of Oryza sativa Indica Group with 4 samples.

Results

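Zinc, manganese and heavy-metal transporters are the proteins that carry these metals across plant membranes, and the members described here are the genes of 6 such families on a rice array. They were chosen by name alone: every probe set with a single annotated gene listed as ZIP1 to ZIP16, or as HMA, MTP, NRAMP, COPT or YSL with a number, apart from YSL2 and YSL15. The rule took 46 of the 57381 probe sets, which stand for 40 of the 17905 genes that single-gene probe sets cover. The YSL family held 14 of these genes, ZIP 8, NRAMP 6, MTP 5, COPT 4 and HMA 3. Another 9 genes of these families in the gene table had no probe set of their own and were not analysed here.

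The samples were rice seedlings (Oryza sativa Indica Group, cultivar Basmati 370) taken 15 days after germination and grown under conditions described as optimal. Both wild-type arrays came from B370 plants without an insertion, and both mutant arrays from a line of the same cultivar labelled as a T-DNA insertion mutant named OsAPC6, which differs from wild type by that insertion as far as the labels say. OsAPC6 is a subunit of the anaphase-promoting complex, a ubiquitin ligase of the cell cycle. The labels do not say how many independent insertion lines or plants stood behind an array, so the p-values measure only the spread between these samples.

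ZIP proteins move zinc, iron and related divalent metals into the cytosol, while MTP proteins move zinc or manganese out of it into vacuoles and other compartments. NRAMP proteins are proton-coupled carriers of manganese, iron and, unintentionally, cadmium. COPT proteins take up copper, HMA proteins are ATP-driven pumps for copper, zinc and cadmium, and YSL proteins carry metals bound to the chelator nicotianamine or to its derivatives, the phytosiderophores. In rice these families share out the uptake of metals from soil, their loading into xylem and phloem and their delivery to young leaves and grain.

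Array-wide, log2 signals correlated at 0.98 between the wild-type arrays, at 0.977 between the mutant arrays and at 0.963 to 0.964 between genotypes, across 38172 probe sets. No probe set was matched to OsAPC6, so the disrupted gene could not be used as a check of the labels and is not analysed here. Leaf genes were bright, with a summed signal of 7 shoot markers between 92270 and 109105 in the 4 arrays. By their brightest probe sets, however, PORA (0.47) and RBCS (0.26) rose while GLK1 (-0.63) and PORB fell. The dimmer RBCS probe sets had differences of -0.38, -0.07 and -0.46 and did not pass. GLK2 did not pass by its brighter probe sets (0.03 and -0.14), while its dimmer ones rose by 0.93 and 1.15. The summed signal of 3 senescence markers was 10441 and 10958 in wild type and 7967 and 7933 in the mutant. There the chlorophyll breakdown genes NYC1 (-0.73) and NOL (-0.29) fell by their brightest probe sets, while SGR did not pass by its own. A dimmer SGR probe set rose by 0.38 (limma adjusted p = 0.0299), and a dimmer one of NOL did not pass. The summed signal of 7 root markers was 1724 and 1963 in wild type and 1104 and 1166 in the mutant. Most of it came from the silicon channel gene LSI1 (log2 difference -0.74, limma adjusted p = 0.000798), the only 1 of 4 tested root markers that passed, while LSI2, PHT1-6 and CASP1 stayed too dim to test. For the GAPDH control, signal at the 3′ end over the 5′ end, which reflects RNA integrity, was 9.72 and 9.84 in wild type and 18.4 and 16.2 in the mutant. For ubiquitin it was 1.04 and 1.03 against 1.32 and 1.27, and for actin and cyclophilin the genotypes overlapped in this ratio. The GAPDH ratio of 3′ end to middle was 1.91 and 1.89 in wild type and 2.78 and 2.76 in the mutant. Actin and cyclophilin signals overlapped at the 3′ end, while those from the middle were lower in the mutant. The middle read 485.8 and 478.7 against 311.5 and 335.2 for actin (AFFX-Os_Actin_M_s_at), and 723.4 and 755.5 against 602.2 and 633.3 for cyclophilin. The part of root share, of senescence and of RNA integrity in the results below was not tested, and in whole seedlings fewer cells of a type and less RNA per cell cannot be told apart.

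The comparison asked how seedlings of the insertion line differed from their parent cultivar, here in their metal transporters. Several transporter genes shifted, bright and dim, and those that passed did so by less than 2-fold. By the brightest probe set of each gene, YSL12, YSL13, NRAMP3, ZIP2 and ZIP6 rose most among those that passed. On the same count YSL9, MTP3 and ZIP4 fell most, while a dimmer probe set of NRAMP4 fell by 0.88. ZIP, YSL, NRAMP and MTP each held both rises and falls. All differences are mutant minus wild type on the scale log2(signal + 16), which understates changes of dim genes, and a gene was called when its Benjamini-Hochberg adjusted p in limma, over all 38172 probe sets tested, was under 0.05. Of the 40 genes 33 were bright enough to be tested, and by the brightest probe set of each 9 rose, 5 fell and 19 did not pass. These 14 of 33 genes, 42.4%, stand beside 26.1% called among all 16488 genes tested the same way, 12.8% upward and 13.3% downward. Counted by probe set, 15 of 38 were called, 9 up and 6 down, against 19% of all probe sets tested, 8.78% up and 10.2% down. The median difference of the 33 genes was 0.08, against -0.02 over all genes, and their median absolute difference was 0.32, against 0.24.

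**Figure D1:**
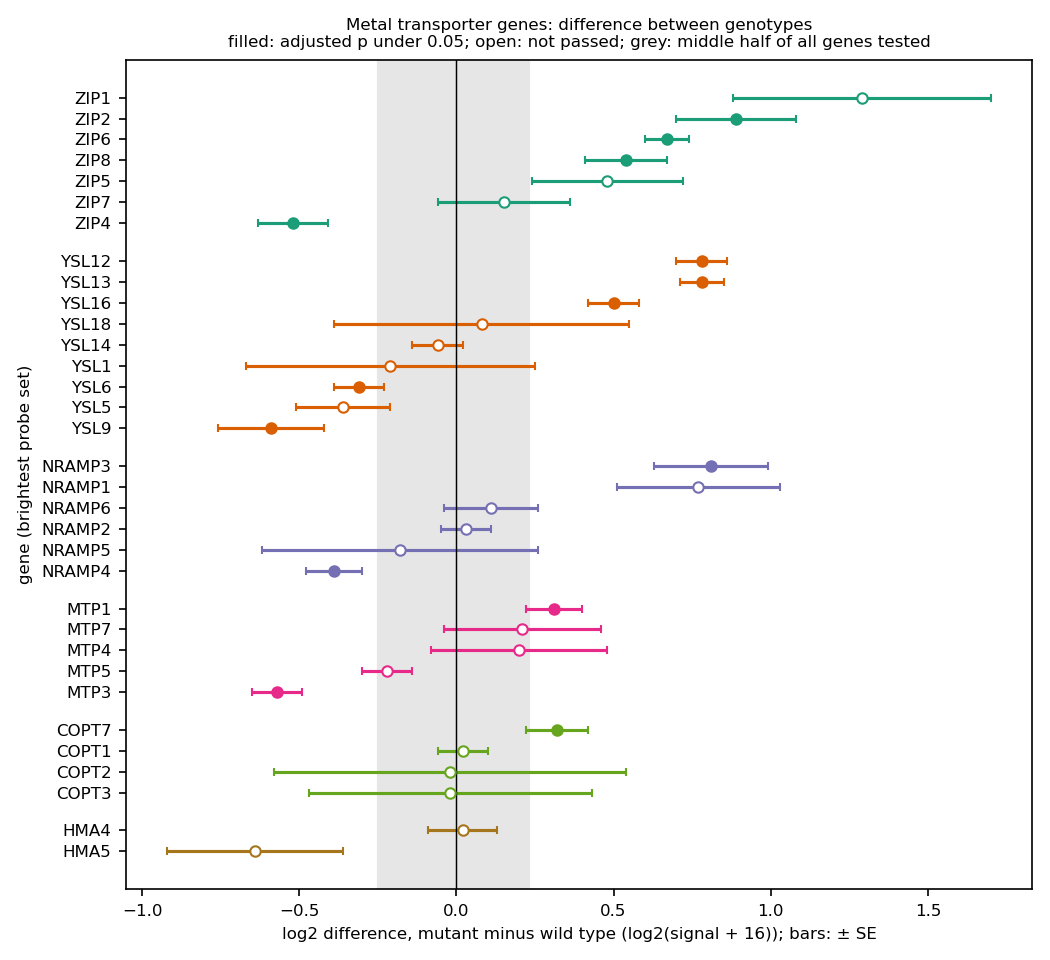
Log2 difference between mutant and wild type (x axis, log2(signal + 16), bars ± SE, 2 arrays per genotype) for the 33 tested transporter genes, grouped by family. Filled points passed the adjusted p of 0.05, and the grey band runs from the lower to the upper quartile of all genes tested, -0.25 to 0.23; ZIP points lie mostly to its right, with ZIP4 on the left.

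The arrays of the genotypes did not overlap for 22 of the 33 genes, while 65.5% of all genes tested showed such separation. By probe set it was 25 of 38, against 56.7%. For 21 of the 33 genes the difference between genotypes was larger than the gap between arrays within each genotype, as it was for 53.7% of all genes. A stricter rule without p-values, at least 2-fold one way in each of the 4 mutant and wild-type pairs, took 0 of the 33 genes, against 2.64% of all genes upward and 0.54% downward and 3.35% of all probe sets. The calls depend on the variance model: when limma shrank all variances toward 1 value rather than an intensity trend, 0 member probe sets and 0 of all 38172 were called, although the unadjusted p was under 0.05 for 14 members and for 9039 probe sets in all. Leaving out either wild-type array reduced the 14 called genes to 9, and all probe sets called to 12.5% (first array) and 12.1% (second array). Leaving out the first or the second mutant array gave 13 and 11 called genes, with 16.9% and 17.1% of all probe sets called.

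More of the brighter members were called. Among 13 transporter genes with a mean signal of 1000 or more 9 were called, where 34.5% of all genes that bright were called. Of the 20 dimmer ones 5 were called, against 19.3% of all dimmer genes. The median SE was 0.08 in the brighter and 0.24 in the dimmer members. With a mean signal under 50, 0 of 5 members passed, where 1.55% of all genes that dim were called.

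**Figure D2:**
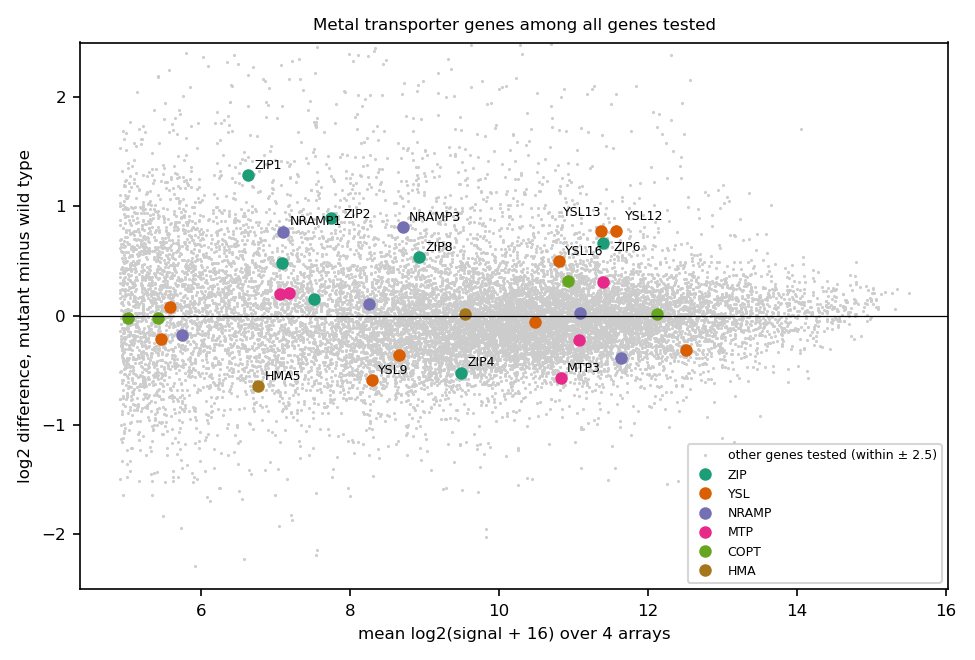
Log2 difference between genotypes (y axis, mutant minus wild type) against mean log2(signal + 16) over the 4 arrays (x axis) for the 33 tested transporter genes, coloured by family, over all other genes tested in grey. Genes beyond ± 2.5 are not shown; members lie among the grey points, with ZIP1 at 1.29 and HMA5 at -0.64 as their ends.

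ZIP genes had the highest family median, 0.54 over 7 tested genes, with 3 rises, 1 fall and 3 that did not pass. ZIP6, which carries iron, cobalt and cadmium when expressed in frog oocytes, read 2046.8 and 2196.8 in wild type, compared with 3361.3 and 3386.1 in the mutant. The groups lay far apart, and ZIP6 rose by 0.67 (SE 0.07, limma adjusted p = 0.000173), a 1.59-fold change. ZIP2 read 128.4 and 156.6 in wild type and 285.7 and 269.3 in the mutant. It rose by 0.89 (SE 0.19, limma adjusted p = 0.00849), the widest rise among called members.

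ZIP8, a plasma membrane zinc transporter whose table entry also carries the name ZIP1, read 402.5 and 374.7 in wild type and 612.1 and 532.1 in the mutant. Both mutant arrays were higher, and the rise was 0.54 (SE 0.13, limma adjusted p = 0.0148). ZIP4, a zinc transporter of vascular tissue that zinc deficiency induces, went the other way, with 813.8 and 879.4 in wild type and 557.1 and 611.1 in the mutant. The groups did not overlap, and ZIP4 fell by 0.52 (SE 0.11, limma adjusted p = 0.00691). Without the second wild-type array neither ZIP4 (limma adjusted p = 0.0558) nor ZIP8 (0.0779) passed, and ZIP8 also missed without the first mutant array (0.0837).

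ZIP1 had the largest absolute difference among the 33 tested genes, 1.29 (SE 0.41, 95% interval 0.38 to 2.21), and just missed the threshold (limma adjusted p = 0.0524). Its arrays read 24.1 and 83.9 in wild type and 134.6 and 144 in the mutant, so the wild-type arrays themselves differed by 1.32 on the log2 scale. It passed without the second wild-type array (1.95, limma adjusted p = 0.00548) and had a difference of 0.64 without the first (limma adjusted p = 0.254). It also passed when dim probe sets were filtered by their mean linear signal (limma adjusted p = 0.0493), a choice tried after seeing the data. ZIP5, which takes part in zinc uptake and is also listed as ZIP2, read 104 and 95 in wild type and 148.2 and 141.8 in the mutant, and its difference of 0.48 (SE 0.24) did not pass (limma adjusted p = 0.204). ZIP7, a zinc transporter of vascular tissue also listed as ZIP3, had overlapping arrays and a difference of 0.15. ZIP3 itself, which unloads zinc from the xylem in nodes, read 0.8 to 2.1 and was too dim to test.

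**Figure D3:**
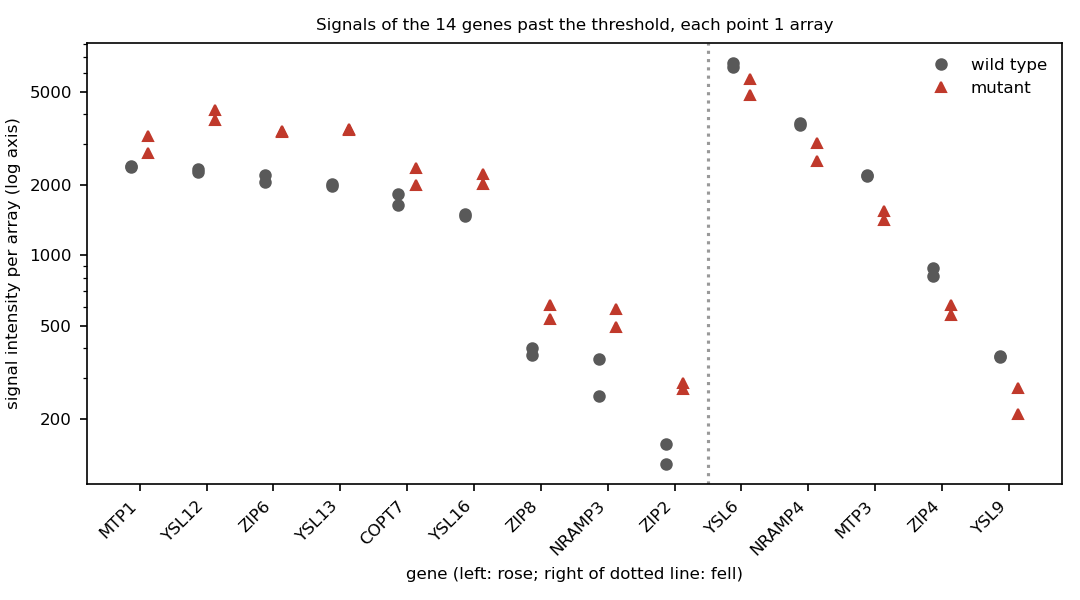
Signal intensity on each array (y axis, log scale) for the 14 transporter genes past the threshold, by their brightest probe set, with wild-type arrays as grey circles and mutant arrays as red triangles. The 9 genes left of the dotted line rose and the 5 right of it fell, and in none do the circles and triangles overlap.

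YSL genes had a median of -0.06 over 9 tested genes, 3 rises, 2 falls and 4 that did not pass. YSL13, which helps move iron to young leaves, read 2010.5 and 1977.1 in wild type and 3467.7 and 3416.7 in the mutant. The arrays of a genotype lay within 0.02 of each other on the log2 scale, and YSL13 rose by 0.78 (SE 0.07, limma adjusted p = 4.29e-05). YSL12 read 2276.3 and 2344.1 in wild type and 3776.6 and 4184.2 in the mutant, and rose by 0.78 as well (SE 0.08, limma adjusted p = 8e-05). A second probe set of YSL12 read 24 on the second mutant array and no more than 2.1 on the others, and was not tested.

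YSL16, which carries copper bound to nicotianamine in the phloem, read 1474.4 and 1503.5 in wild type and 2010.4 and 2220.6 in the mutant. All mutant values were higher, and it rose by 0.50 (SE 0.08, limma adjusted p = 0.00208). YSL9, a carrier of iron bound to nicotianamine or to the phytosiderophore deoxymugineic acid, read 369.3 and 367.5 in wild type and 271.3 and 210.1 in the mutant. It fell by 0.59 (SE 0.17, limma adjusted p = 0.0318), and the mutant arrays differed more from each other than the wild-type arrays did.

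YSL6, a manganese carrier that protects rice from excess manganese, was bright, with 6374.9 and 6652.1 in wild type and 5648.6 and 4856.4 in the mutant. The arrays did not overlap and YSL6 fell by 0.31 (SE 0.08, limma adjusted p = 0.0217). Neither YSL6 nor YSL9 passed without the first wild-type array (limma adjusted p = 0.066 and 0.116), without the second (0.138 and 0.116) or without the second mutant array (0.0789 and 0.136), where the difference of YSL6 was -0.20. YSL5 had a difference of -0.36 (limma adjusted p = 0.142) and YSL14 one of -0.06 with a 95% interval of -0.24 to 0.12. YSL1 and YSL18, a phytosiderophore-iron carrier known from flowers and phloem, read between 20.3 and 45.6 on every array and their genotypes overlapped.

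Several YSL genes are neighbours in the gene order of assembly ASM3414082v1, a Japonica genome. YSL13 and YSL12 are adjacent there and rose by like amounts, while YSL11, next to YSL12, was too dim to test at 2.9 and 8 in wild type and 1.5 and 1.2 in the mutant. YSL7 and YSL8 are adjacent as well, and neither was bright enough to be tested. YSL6 and YSL5 are also adjacent, and both had lower values in the mutant, although YSL5 did not pass. YSL9 and YSL16 lie with 3 other genes between them, and there YSL9 fell while YSL16 rose. Whether probes of adjacent family members bind each other's transcripts was not tested.

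**Figure D4:**
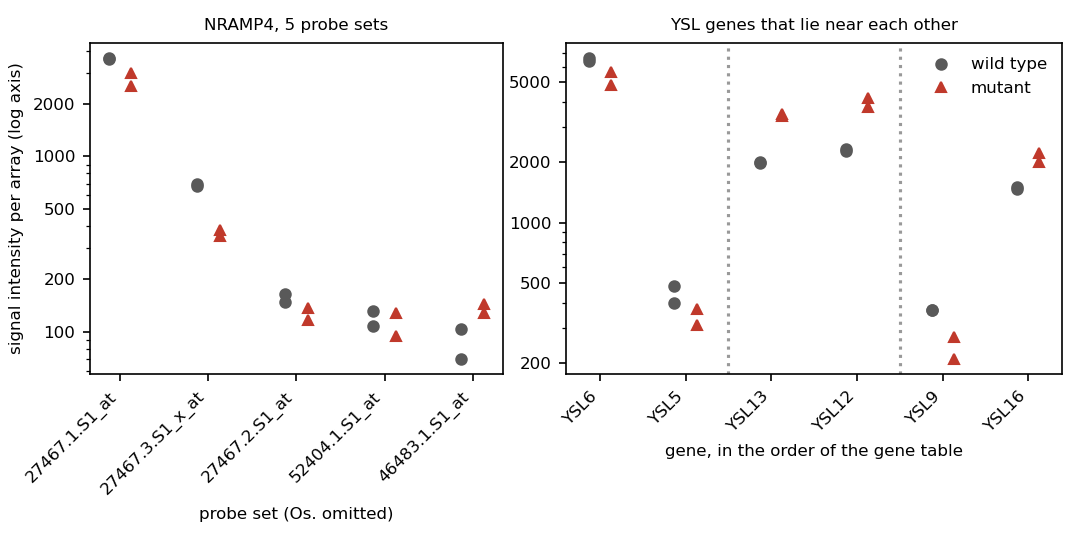
Signal intensity on each array (y axes, log scale; wild type as grey circles, mutant as red triangles) for the 5 probe sets of NRAMP4 on the left and for 3 sets of nearby YSL genes on the right, parted by dotted lines. Mutant signals of NRAMP4 are lower in the 2 brightest probe sets and higher in the dimmest, and YSL9 and YSL16 go opposite ways.

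NRAMP genes had 1 rise, 1 fall and 4 that did not pass, with a median of 0.07 over 6 genes. NRAMP3, which distributes manganese in the vascular bundles of nodes, read 250.6 and 358.7 in wild type and 586.6 and 493.8 in the mutant. The wild-type arrays differed by 0.49 on the log2 scale, less than the rise of 0.81 (SE 0.18, limma adjusted p = 0.00963). NRAMP1, a carrier of iron and cadmium, read 79.3 and 99.3 in wild type and 135.8 and 195.9 in the mutant. Its difference of 0.77 (SE 0.26, 95% interval 0.19 to 1.36) was nearly as large but did not pass (limma adjusted p = 0.0694), and it passed without the first mutant array (limma adjusted p = 0.0403).

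NRAMP4, as the gene table names it, was read by 5 probe sets, and they disagreed. The brightest read 3668.8 and 3587.5 in wild type and 2531.8 and 3007.1 in the mutant, a fall of -0.39 (SE 0.09, limma adjusted p = 0.0109). The next brightest, of the x type whose probes can bind several transcripts, read 698.5 and 674.8 in wild type and 380.6 and 351.7 in the mutant. It fell by 0.88 (SE 0.12, limma adjusted p = 0.000603), more than the brightest, and both had separate groups. The other 3 did not pass and read between 69.8 and 163.2 on every array, with differences of -0.26, -0.10 and, for the dimmest, 0.58 (SE 0.27, limma adjusted p = 0.183). Groups were separate for those with -0.26 and 0.58 as well, and overlapped for the one with -0.10. Without the first wild-type array neither NRAMP3 (limma adjusted p = 0.05, not under the threshold) nor the brightest NRAMP4 probe set (0.0569) passed.

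NRAMP2 read 2098.8 to 2236.6 on all 4 arrays, with overlapping genotypes and a difference of 0.03 (95% interval -0.14 to 0.19). NRAMP6 had a difference of 0.11. NRAMP5, the main root carrier for uptake of manganese and cadmium, read between 23.8 and 52 on every array, and its difference of -0.18 had a 95% interval of -1.16 to 0.81, too wide to tell a change from none.

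MTP genes had 1 rise, 1 fall and 3 that did not pass, with a median of 0.20 over 5 genes. MTP3, a member of this cation efflux family, read 2182.2 and 2206.5 in wild type and 1407.8 and 1546.2 in the mutant. The groups were well apart, and MTP3 fell by 0.57 (SE 0.08, limma adjusted p = 0.000905). MTP1, which moves zinc into the vacuole, read 2391.4 and 2405 in wild type and 3243.2 and 2721.7 in the mutant. It rose by 0.31 (SE 0.09, limma adjusted p = 0.0377), while the mutant arrays differed by 0.25 from each other.

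MTP1 did not pass without the first wild-type (limma adjusted p = 0.132), the second wild-type (0.125) or the first mutant array (0.19), where its difference was 0.18. MTP5, whose Arabidopsis relative forms a zinc transporter with MTP12 in the Golgi, had a difference of -0.22 (limma adjusted p = 0.104) with separate groups. MTP7 overlapped between genotypes. So did MTP4 by both of its probe sets, with 0.20 and 0.36, the latter dim and with arrays of 1 genotype up to 1.3 apart on the log2 scale.

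COPT genes had the smallest median absolute difference of the families, 0.02 over 4 genes, with 1 rise. That median includes COPT2 and COPT3, which were too dim to tell a change from none. COPT7, also listed as COPT5.1, read 1824.6 and 1638.7 in wild type and 1996.1 and 2351.2 in the mutant. Its arrays did not overlap, and it rose by 0.32 (SE 0.10, limma adjusted p = 0.0431), but it did not pass without the second wild-type (limma adjusted p = 0.244) or the second mutant array (0.206, with a difference of 0.21). COPT1, a copper importer of the plasma membrane, was bright at 4290.1 and 4527.4 in wild type and 4730.3 and 4194.4 in the mutant. Its genotypes overlapped and the 95% interval of its difference ran from -0.16 to 0.19. COPT2 and COPT3 read between 9.9 and 29.4 on every array, where intervals of up to -1.26 to 1.23 leave the direction unknown.

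HMA genes had no call among 2 tested genes. HMA5, which loads copper into the xylem, read 126.7 and 113.3 in wild type and 80.5 and 62.6 in the mutant. Its groups did not overlap, yet the difference of -0.64 (SE 0.28) did not pass (limma adjusted p = 0.148). HMA4, which stores copper in root vacuoles, read 688.2 and 755.1 in wild type and 780.5 and 688.1 in the mutant, with a difference of 0.02 (95% interval -0.22 to 0.27). HMA2, a pump that loads zinc and cadmium into vascular tissue, read at most 11.1 and was not tested.

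The 7 genes too dim to test were HMA2, ZIP3, YSL4, YSL7, YSL8, YSL10 and YSL11. HMA2, ZIP3, YSL4, YSL8 and YSL11 read 18.3 or less on every array. YSL10 read 3 and 1.3 in wild type and 21.5 and 39.1 in the mutant, and YSL7 read 5.8 and 2.3 in wild type and 26.6 and 9.4 in the mutant, in both cases with the mutant higher. Without the filter on dim probe sets the difference of YSL10 was 1.33 (SE 0.37, limma adjusted p = 0.0901) and that of YSL7 was 0.72 (SE 0.37, limma adjusted p = 0.342), so neither passed. In that fit 11 member probe sets were called, against 8.66% of all.

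Other genes of metal handling, in a list altered after its values were seen, had larger differences by their median size. The list held chelator synthesis, iron storage and uptake, metallothioneins, regulators and calcium exchangers, and 20 of its 21 genes were tested. Of these 8 rose, 6 fell and 6 did not pass, and their median absolute difference was 0.60, with a median of 0.17. Among all genes tested 26.1% were called, 12.8% upward and 13.3% downward, and the median absolute difference was 0.24. NAAT1, which makes an intermediate of phytosiderophores, read 1504.8 and 1422.9 in wild type and 5775.9 and 5496.8 in the mutant, and rose by 1.93 (SE 0.07, limma adjusted p = 1.89e-07). MT1B, a metallothionein that binds metals in the cytosol, read 1175.1 and 1100.7 in wild type and 4561 and 4816.9 in the mutant, and rose by 2.03 (SE 0.08, limma adjusted p = 1.89e-07). Both were far apart between genotypes.

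YSL15, a YSL gene outside the set that imports iron-phytosiderophore complexes in roots, read 301.2 and 320.7 in wild type and 118 and 68.3 in the mutant. It fell by 1.62 (SE 0.25, limma adjusted p = 0.00135), further than any YSL member fell. Of the vacuolar iron transporters VIT1 fell by 0.65 (SE 0.07) and VIT1.2 by 1.95. The regulator gene listed as IRO3, whose entry also carries the name OsIRO2, rose by 0.56, and the vacuolar cation exchanger genes CAX2 and CAX3 rose by 0.70 and 0.43. By their brightest probe sets the metallothionein genes MT4A and MT1A rose by 0.98 and 0.26, while MT2A and MT2B fell by 0.30 and 0.50. The next brightest probe set of MT2A overlapped between genotypes, with a difference of -0.05. MT2C and MT4C did not pass by their brightest probe sets, while a dimmer one of MT2C fell by 0.44. The nicotianamine synthase gene NAS1, which read 93.1 and 149.3 in wild type and 2.2 and 25.3 in the mutant, passed the test as lower in the mutant (limma adjusted p = 0.00772). Its mutant signal was at the level of probe sets left out as dim, which reached a mean of 14.1, so no fold is given. The NAS1 relatives NAS2 and NAS3 had differences of 0.91 and 0.32 and did not pass. Fewer genes of the list were called when any single array was left out, and without the filter on dim probe sets, as was so for all probe sets.

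**Figure D5:**
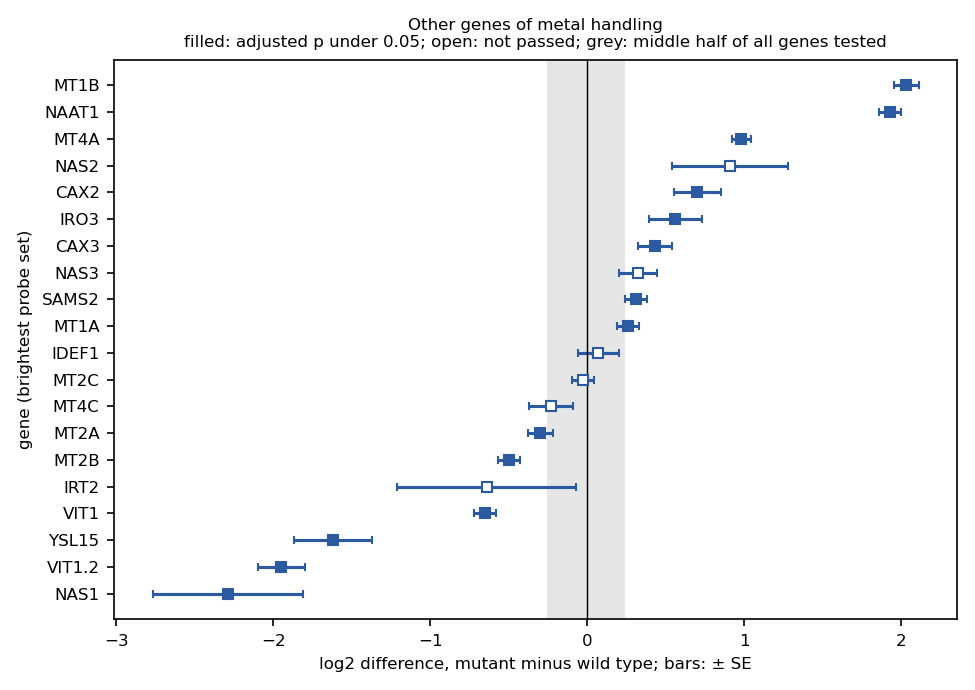
Log2 difference between genotypes (x axis, mutant minus wild type, bars ± SE) for the 20 tested genes of metal handling outside the transporter families. Filled squares passed the adjusted p of 0.05 and the grey band runs from -0.25 to 0.23, the quartiles of all genes tested; MT1B is highest at 2.03, and the size drawn for NAS1, the lowest, depends on the added 16 because its mutant signals were dim.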

How the data were processed

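Each array received biotin-labelled RNA made from 8 µg of total RNA, per the labels' protocols. The authors deposited 1 linear intensity per probe set and array. GCOS 1.2 is named in the submitters' processing notes, while the signal algorithm is not given in the sources used here. Leaving out 2% at either end, the mean was 500.1 on all 4 arrays.

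In R 4.3.3, 123 controls and the 19086 probe sets with the lowest mean log2(signal + 16) were dropped, without further normalization. Whether that mean is taken on the log or the linear scale was settled after both had been seen. The comparison used limma 3.58.1 (lmFit, eBayes with trend), tested on simulated data.

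Names came from the platform annotation (22436 probe sets with a single gene, 95 with more, 34850 unlisted) and RefSeq's ASM3414082v1 table, through synonyms. A gene with several numbers took the highest. TOM and BZIP50 names, planned for the list of metal handling, were removed after their values had been seen, because their entries are other genes.

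Named were called members, members whose probe sets disagree, each family's brightest and most changed member, and further members by values. The members and lists were chosen with earlier results of these data known. Alternatives stand in the closing section.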

Additional observations from a re-analysis of the deposited data

Results flagged for a closer look

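A control for a reporter sequence, RPTR-Os-K01193-1_at, which stands for no member, was listed because it was far brighter in the mutant. It read 245.6 and 287.2 on the wild-type arrays but 10386.1 and 9989.3 on the mutant ones. The difference was 5.18 on the log2 scale (SE 0.09, limma adjusted p = 3.12e-09).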

How the results depend on the processing

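All 15 called member probe sets kept their sign under every alternative in which they were tested. Their arrays did not overlap between genotypes, so leaving out an array could not have reversed a sign, and the kept signs are no test. Of the 15, 7 kept their call in all but the single variance prior. They were those of ZIP2, ZIP6, YSL12, YSL13, YSL16, MTP3 and the second brightest of NRAMP4. That prior gave 0 called member probe sets against 15, 0 called genes of the families against 14 and 0 other metal genes against 14, and the cause was not tested. The rule of 2-fold in all 4 pairs took 0 member probe sets, 0 genes and 5 of 20 other metal genes. Among all genes tested it took 2.64% upward and 0.54% downward. With single arrays omitted, so that 1 genotype had no spread of its own and borrowed that of the other, limma gave 10 to 14 member probe sets, 9 to 13 genes of the families and 8 to 13 other metal genes. Without the filter, 11 member probe sets and 9 other metal genes were called. ZIP1 missed the threshold (limma adjusted p = 0.0524) but passed under 6 other planned settings. These included 64 added before log2, a stricter filter on dim probe sets and a common 75th percentile (limma adjusted p = 0.0467). The others were a robust intensity trend, the replicate number as a block and the second wild-type array left out. ZIP1 also passed under a filter on mean linear signal (limma adjusted p = 0.0493). That filter, chosen after seeing the data, called 16 member probe sets, 15 genes and 14 other metal genes. The list of other metal genes with its TOM and BZIP50 names gave 15 calls among 24 genes (9 rose, 6 fell) and a median of 0.11, also chosen after seeing the data. With the replicate number as a block, 16 member probe sets were called in place of 15, beside 20.1% of all probe sets, and ZIP1 passed (limma adjusted p = 0.0114). The labels do not say that a number marks a shared day, and deviations of same-numbered arrays correlated at 3.1e-05 across probe sets, so the samples were not treated as pairs. With 2 arrays per genotype, precision is limited throughout, most of all for dim members.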
